A study of Mus musculus with 8 samples.

Results

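Immediate-early genes are switched on within minutes of a stimulus without new protein synthesis, and heat shock and growth arrest genes follow stress. Many of them encode transcription factors of the AP-1, EGR, KLF and NR4A families, and others encode phosphatases and RNA-binding proteins that end the response. Their transcripts are short-lived, and in liver they are known to rise while cells are freed from the tissue and sorted. Of 40 such genes named for this account, 39 had a probe set with a single gene symbol among 19938 genes measured. Hspa1b did not, because its probe set is also assigned to Hspa1a, and its values are given with those of the heat shock genes. The genes were chosen by name, though with earlier results of these data known.

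The study compared hepatic stellate cells (vitamin A-storing cells that wrap the liver sinusoid) with and without deletion of Lhx2, a LIM homeobox transcription factor. The knockout group held 4 arrays, replicates 5 to 8, from Mx1Cre+ mice with floxed Lhx2. The control group held 4 arrays, replicates 1 to 4, from Cre-negative mice that carried the same floxed Lhx2 allele. All mice had a C57BL/6J background and had been given poly(I:C), a synthetic inducer of interferon, 3 times. Cells were isolated 2 weeks later, first on a density gradient and then by a sort for the autofluorescence of their retinoid, and were lysed at once. The Mx1 promoter that drives Cre answers to interferon and is not restricted to stellate cells, so effects of Lhx2 loss in stellate cells cannot be told apart from those of its loss elsewhere. Effects of the Cre transgene itself cannot be told apart from those of the deletion either. No source used here gives ages. Nor do the labels say that each array is a separate animal, so the p-values rest on a spread between arrays that may be technical.

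RNA was hybridised to Affymetrix mouse gene arrays, and all levels below are the deposited log2 values, on which a difference of 1 is a doubling. They ran from 4.19 to 14.42. Array medians lay between 7.42 and 7.47, and precision is limited by having 4 arrays a group. Lhx2 averaged 11.29 ± 0.17 in the knockout and 11.95 ± 0.08 in the control group (SD, n = 4 each), and stood at 63.3% of the control level (limma adjusted p = 0.00136; exact two-sided permutation p = 0.0286, the smallest that 4 against 4 arrays allow). The labels do not give the deleted part of the gene, so its probes may lie outside it. The 11 measured markers of stellate cells had mean levels of 11.9 to 13.9, near the top of the range. RNA of hepatocytes (13 markers, 8.43 to 13.02) and sinusoidal endothelial cells (12 markers, 8.32 to 11.7) was present as well. Lymphocyte and neutrophil markers lay between 5.29 and 7.67, where 1194 olfactory and vomeronasal receptor genes, not known to be used by these cells, had a 95th percentile of 6.77.

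Early response and stress genes were abundant in every array. Their mean levels ran from 6.92 for Dusp2 to 13.7 for Dusp1, with a median of 11.5 against 7.94 for all genes, and 24 of the 39 lay in the top 10% of genes by level. Fos, Jun, Egr1, Dusp1 and Hspa1a all had levels of at least 12.66 in each array.

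The main pattern was a difference between arrays that cut across the groups. Relative to each gene's mean over the 8 arrays, the median of the 39 genes was -0.13, -0.11, -0.40 and 0.16 in knockout 5, 6, 7 and 8, and -0.10, 0.35, -0.09 and 0.35 in control 1, 2, 3 and 4. Control 4, control 2 and knockout 8 were thus high and knockout 7 was low. In all 8 arrays the same median over all 19938 genes lay between -0.03 and 0.03. Control 4 held the highest of the 8 values for 23 members, control 2 for 9 and knockout 8 for 6. Of all 19938 genes, 2285 were highest in control 4, 1749 in control 2 and 1215 in knockout 8. Knockout 7 held the lowest value for 26 members (16.5% of all genes).

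**Figure D1:**
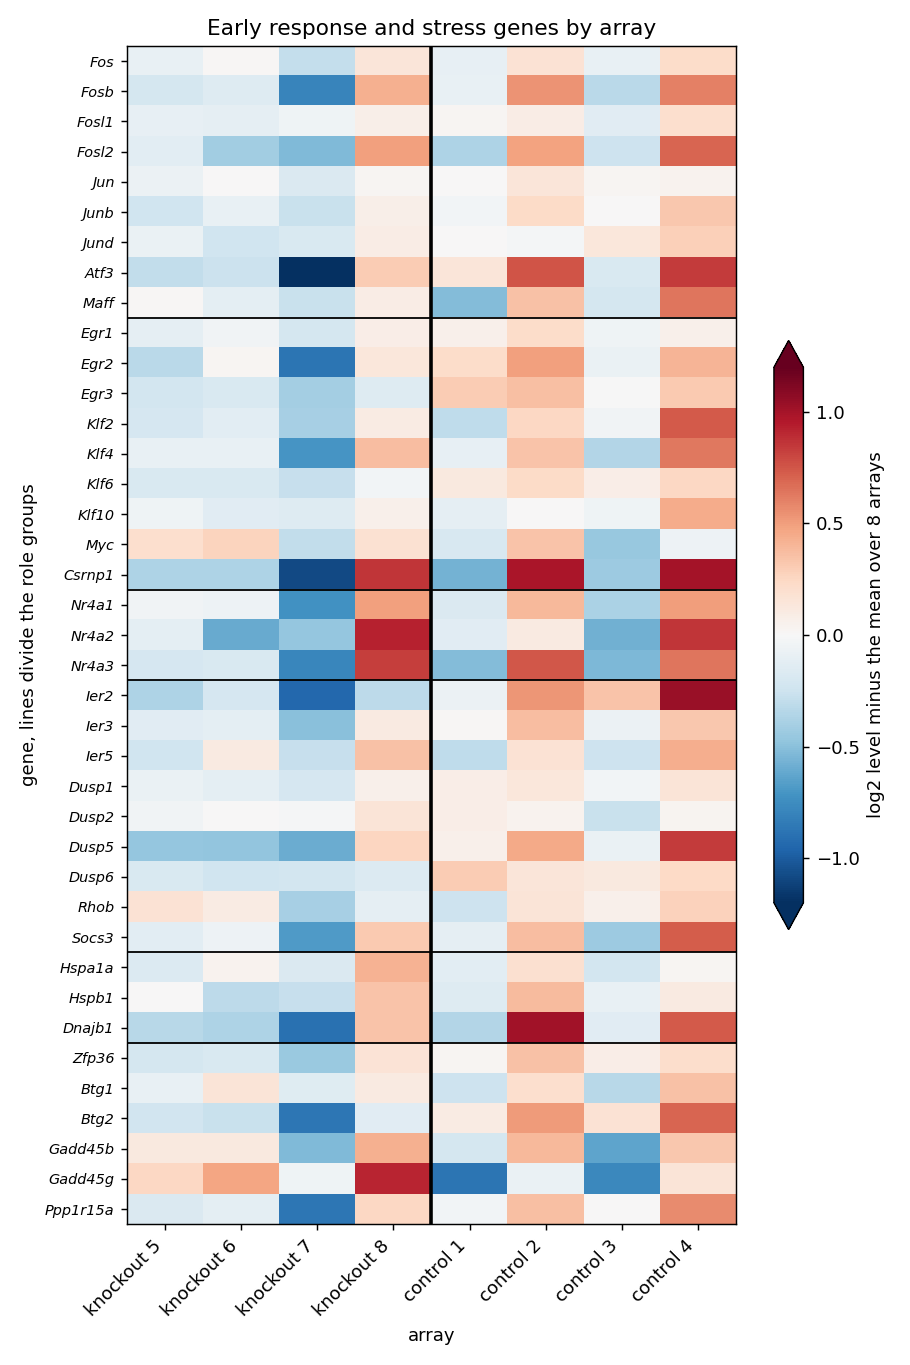
Log2 level minus the gene's mean over 8 arrays (colour, which saturates at 1.2) for 39 early response and stress genes (rows, lines divide the role groups) in 4 knockout and 4 control arrays (columns). Knockout 8, control 2 and control 4 are red in most rows and knockout 7 is blue.

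The order of the arrays within each group was shared by most of the genes. Control 2 and control 4 both exceeded control 1 and control 3 for 36 of 39 genes, against 12% of all genes. Knockout 8 was the highest knockout array for 35 genes (15.6% of all genes) and knockout 7 the lowest for 33 (30.2% of all genes). Knockout 8 was highest and knockout 7 lowest in the same gene for 29 members (5.23% of all genes). All of these orders held together for 29 of 39 genes, against 1.63% of all genes. Among the 1144 genes at least as bright as the median member, the share was 2.71%. The 10 genes that departed from it in some array were Fosl1, Jund, Myc, Nr4a2, Ier2, Dusp2, Dusp6, Rhob, Hspb1 and Btg1. These are orders within groups, so the knockout does not enter them, but they were noticed in the same arrays and have no test of their own.

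The spread within groups was therefore wide. The within-group standard deviation, pooled over both groups, had a median of 0.31 over the members and 0.11 over all genes. It exceeded the 95th percentile of all genes for 23 of 39 members, where 5% of all genes do. Among the 1144 bright genes, 37 did. For 35 members it was above the median of all genes, where 50% of genes are. The median standard deviation of the members was 0.28 in the knockout and 0.29 in the control group, so the spread was about as wide in both. Over the 8 arrays 19 members spanned at least 1 on the log2 scale, as 4.89% of all genes did.

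Markers of other cells moved between arrays too. The 12 sinusoidal endothelial markers averaged 8.53, 9.47, 9.23 and 9.83 in knockout 5 to 8, against 8.57, 10.6, 9.48 and 11.1 in control 1 to 4. Control 4, control 2 and knockout 8 were the highest for these markers as well, and 1 of the 12, Clec4g, passed the test as lower in the knockout (3.63% of all genes did). All 12 differences were negative, with a median of -0.72 (2 at an unadjusted p under 0.05), the direction of most early genes. The 13 hepatocyte markers averaged 9.76, 9.19, 10.7 and 9.95 in the knockout arrays and 10.9, 9.64, 10.7 and 8.79 in the control arrays. Knockout 7, control 1 and control 3 were the highest for the hepatocyte markers. The early genes had medians below 0 in these 3 arrays, and also in knockout 5 and knockout 6, where the hepatocyte markers were low. Of the hepatocyte markers, 0 of 13 passed the limma test (1 at an unadjusted p under 0.05). The 11 stellate markers averaged 13.1 in each knockout array and 13.2 to 13.3 in the control arrays, and 4 of the 11 were lower in the knockout (Rgs5 by -0.52, Hand2 by -0.48, Hgf by -0.37 and Reln by -0.26). Of all genes 3.63% were lower, and of the 1144 genes at least as bright as the median member 12.3% were. Of 9 portal fibroblast markers Cd34 and Dpep1 were higher in the knockout, with differences of 3.08 and 2.37, where 3.76% of all genes were higher. The differences of 6 of these 9 markers were negative, and the median was -0.01. Of 11 macrophage markers Cd68 was lower, with a difference of -0.61 (limma adjusted p = 0.0278). In that list 6 differences were negative and 5 positive. Fewer cells of a type and less RNA per cell cannot be told apart in such bulk samples. The part of these cells in the array pattern was not tested. A fit with both marker levels as covariates was added after the data were seen. In it the 5 genes described below as lower in the knockout still passed the test. The median member difference in that fit was -0.16, against -0.20 without the covariates. Gadd45g passed as higher, and the sign turned for Maff, Nr4a2, Nr4a3, Ier5 and Hspb1.

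**Figure D2:**
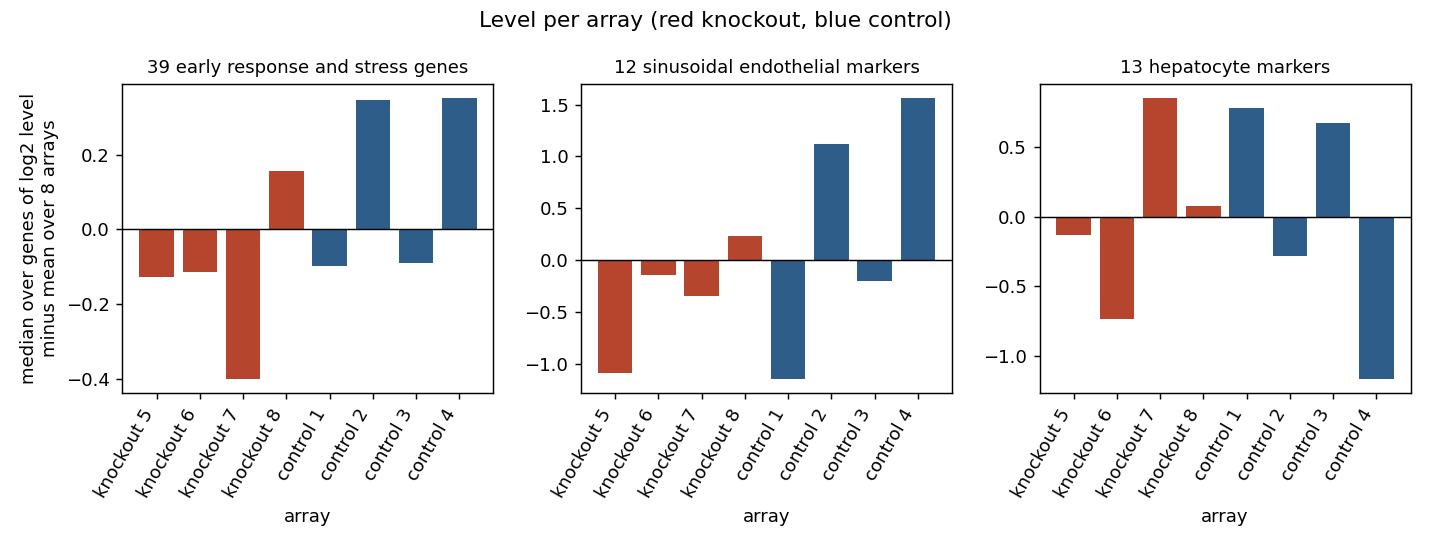
Median over genes of the log2 level minus the mean over 8 arrays, for 39 early response and stress genes, 12 sinusoidal endothelial and 13 hepatocyte markers, with a scale of its own in each panel and 1 bar per array (red knockout, blue control). Control 2, control 4 and knockout 8 are above 0 for the early genes and the endothelial markers, and the hepatocyte bars have the opposite sign to the early genes in knockout 7 and all 4 controls.

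Because most of the members shared this array order, the sequence before their start sites was searched for elements that early response genes are known to use. Of the 40 genes, 34 had at least 1 window of 250 bases before an annotated start in RefSeq (GRCm38.p6). Fosl1, Egr1, Egr3, Klf10, Myc and Ier2 were not searched. The comparison was 15615 measured genes, both strands searched. A gene with several annotated starts, such as Egr2 or Csrnp1, had several windows and counted if any held the element. The shares are not adjusted for the number of windows. The serum response element (CArG box), bound by SRF, was found for Egr2, Dusp5 and Zfp36, 3 of 34 genes (8.82%) against 1.45% of all. The full cyclic AMP response element TGACGTCA, bound by CREB and ATF factors, was found for Maff, Dusp1, Btg2 and Ppp1r15a, 4 of 34 (11.8%) against 2.33%. Its core TGACG, which overlaps the full element, stood before 19 of 34 genes (55.9%) and before 24.1% of all. The AP-1 site TGANTCA was found for 1, Csrnp1 (2.94%, against 7.12%). Heat shock elements contain GAANNTTC, which 5 of 34 genes held (14.7%, against 6.87%), namely Fosl2, Jun, Hspa1a, Hspa1b and Hspb1. A match of letters is not evidence of binding.

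The 170 bases before the start are printed for the genes with a complete CArG box, with the box in capitals. They lie on the plus strand of chr10:67537396-67537565 for Egr2, the plus strand of chr19:53528975-53529144 for Dusp5 and the minus strand of chr7:28379229-28379398 for Zfp36. The boxes begin at -72 in Egr2, -82 and -72 in Dusp5, and -58 in Zfp36, counted back from the start site. Egr2 has several annotated starts, and the first that held a box is shown.
Egr2: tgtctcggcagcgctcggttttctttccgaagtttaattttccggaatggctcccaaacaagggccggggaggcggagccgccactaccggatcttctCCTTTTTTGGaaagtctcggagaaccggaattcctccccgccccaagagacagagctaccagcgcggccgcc
Dusp5: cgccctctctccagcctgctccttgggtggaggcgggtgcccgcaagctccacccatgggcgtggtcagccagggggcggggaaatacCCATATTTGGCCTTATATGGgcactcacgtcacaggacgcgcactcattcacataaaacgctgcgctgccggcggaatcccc
Zfp36: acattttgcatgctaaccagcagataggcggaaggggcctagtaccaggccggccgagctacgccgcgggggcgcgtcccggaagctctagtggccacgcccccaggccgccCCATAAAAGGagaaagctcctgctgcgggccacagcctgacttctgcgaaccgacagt

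The same stretch is printed for the genes with the full cyclic AMP response element, again in capitals. It lies on the plus strand of chr15:79347350-79347519 for Maff and on the minus strand of chr17:26508473-26508642 for Dusp1, chr1:134079156-134079325 for Btg2 and chr7:45526269-45526438 for Ppp1r15a. The element begins at -29, -143, -166 and -12 in these genes.
Maff: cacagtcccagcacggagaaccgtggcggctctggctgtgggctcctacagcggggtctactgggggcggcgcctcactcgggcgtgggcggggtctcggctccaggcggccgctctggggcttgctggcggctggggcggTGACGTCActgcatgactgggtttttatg
Dusp1: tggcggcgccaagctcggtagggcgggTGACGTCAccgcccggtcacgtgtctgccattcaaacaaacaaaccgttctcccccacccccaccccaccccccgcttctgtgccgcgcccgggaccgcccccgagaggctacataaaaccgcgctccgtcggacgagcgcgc
Btg2: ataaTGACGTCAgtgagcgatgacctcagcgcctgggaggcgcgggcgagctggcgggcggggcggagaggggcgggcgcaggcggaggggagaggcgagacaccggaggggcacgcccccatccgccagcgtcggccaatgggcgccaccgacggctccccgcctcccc
Ppp1r15a: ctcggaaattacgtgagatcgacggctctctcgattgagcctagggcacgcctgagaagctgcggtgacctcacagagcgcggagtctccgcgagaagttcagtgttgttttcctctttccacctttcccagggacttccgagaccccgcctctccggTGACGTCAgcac

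Against this spread between arrays, 5 of the 39 genes were lower in the knockout group in limma's test over all 19938 genes (adjusted p under 0.05), where 3.63% of all genes were. They were Dusp6, Klf6, Egr3, Btg2 and Ier2. Among the 1144 genes at least as bright as the median member, 141 (12.3%) were lower, a share close to the members' 12.8%. Of the 20 members in that bright set 3 were lower (15%). None was higher (0 of 39, against 3.76% of all genes), and 34 did not pass, where 7.38% of all genes passed in either direction. No member had all 4 knockout arrays above all 4 control arrays (0 of 39, against 6.38% of all genes). At an unadjusted p under 0.05, 12 were lower and 1, Gadd45g, was higher, where 17.5% of all genes passed in either direction. Among the 1144 bright genes 473 passed at that threshold, 287 lower and 186 higher, so the members did not stand out from them in total. The difference was negative for 33 of 39 genes (57.4% of all genes), with a median of -0.20 over the members and -0.02 over all genes. Since the members share an array order, these 33 are not separate observations. The median moved with single arrays. Without knockout 8 it was -0.38 and without control 4 it was -0.11. In the fit without control 1 and control 4, 1 member, Dusp6, passed.

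**Figure D3:**
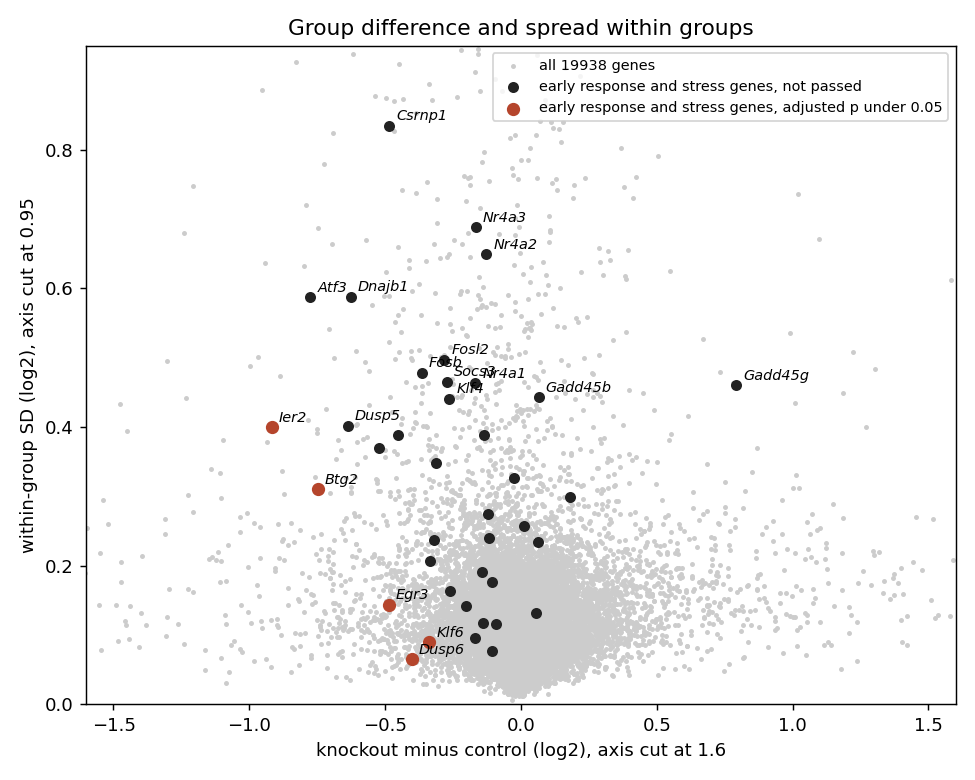
Knockout minus control on the log2 scale (x) against the pooled within-group standard deviation (y) for 19938 genes in grey and 39 early response and stress genes in black or, where the adjusted p was under 0.05, red. Among the red genes Dusp6, Klf6 and Egr3 lie lowest, with standard deviations of 0.07, 0.09 and 0.14 (median of all genes 0.11). Csrnp1, Nr4a3 and Nr4a2 lie highest of the 39 genes, with differences of -0.48, -0.17 and -0.13.

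The AP-1 subunits are leucine zipper factors that bind DNA in pairs, and none of the 9 measured passed the test (2 at an unadjusted p under 0.05, both lower). All 9 differences were negative, from -0.77 to -0.09. Fos, the founding member, had levels of 12.86, 12.96, 12.66 and 13.10 in knockout 5 to 8, against 12.85, 13.12, 12.86 and 13.17 in control 1 to 4. Its groups overlapped, and the difference was -0.11 with a 95% interval of -0.35 to 0.14. Jun, the usual partner of Fos, differed by -0.11 (interval -0.24 to 0.03) and spanned 0.31 over the 8 arrays. Fosb and Fosl2, close relatives of Fos, spanned 1.39 and 1.23 and followed the array order, with differences of -0.37 and -0.28.

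Atf3, a stress-induced repressor of this family, varied most among them. Its levels were 12.17, 12.21, 11.16 and 12.77 in knockout 5 to 8 and 12.61, 13.22, 12.28 and 13.30 in control 1 to 4, a span of 2.14 or 4.41-fold. Only knockout 8 reached into the control range. The difference was -0.77 (SE 0.34; limma adjusted p = 0.272). Junb and Jund, the other Jun proteins, differed by -0.26 and -0.20, with 3 of 4 knockout arrays below every control array in both. Fosl1, a Fos relative, was dim at a mean of 7.17. Maff, a small Maf protein, lay between 7.59 and 7.95 in the knockout arrays, against 7.34, 8.21, 7.65 and 8.50 in control 1 to 4.

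Of the 9 zinc finger and other early factors, Klf6 and Egr3 were lower in the knockout and 7 did not pass. Egr3, an early growth response factor, had 8.41, 8.45, 8.23 and 8.48 in knockout 5 to 8, against 8.941, 8.995, 8.631 and 8.952 in control 1 to 4. No knockout array reached the lowest control array, and all 4 lay below 8.5. The level was 71.4% of the control's, a difference of -0.49 (SE 0.09; limma adjusted p = 0.0108). Klf6, a Krüppel-like factor abundant in stellate cells, had 11.55, 11.54, 11.45 and 11.69 in the knockout arrays and 11.85, 11.95, 11.81 and 11.97 in the control arrays. Its groups did not overlap, as held for 5 of 39 members in this direction and for 6.32% of all genes (21.6% of the 1144 bright genes, more than the members' 12.8%), and the difference was -0.34 (SE 0.07; limma adjusted p = 0.0129). Both passed when any 1 array was left out. Without control 1 and control 4 together they did not pass (adjusted p = 0.131 for Egr3 and 0.105 for Klf6), with differences of -0.42 and -0.32.

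Egr1 and Egr2, relatives of Egr3, did not pass. Egr1, the best known gene of the family, lay between 13.07 and 13.36 in the knockout arrays and between 13.23 and 13.50 in the control arrays, a difference of -0.14 (interval -0.32 to 0.04). Egr2 differed by -0.52 (SE 0.21; limma adjusted p = 0.24), and knockout 7, at 11.59, was its lowest array, with the next at 12.14. Klf2 and Klf4 are factors that endothelial cells also use. They lay highest in control 4, at 12.15 and 11.60, as did 23 of the 39 members, and differed by -0.31 and -0.26 with overlapping groups. That array also had the most endothelial marker RNA, whose part in these levels was not tested.

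Csrnp1, a nuclear protein induced by axin and cytokines, had the widest within-group spread of the 39 genes. It stood at 10.20, 10.20, 9.49 and 11.42 in knockout 5 to 8 and at 9.997, 11.55, 10.13 and 11.57 in control 1 to 4. Knockout 8, control 2 and control 4 formed an upper set and the other 5 arrays a lower one, with a gap of more than 1 between them. The group difference of -0.48 had an interval of -1.56 to 0.59. Myc, the growth-promoting factor, was 1 of the 6 genes with a positive difference (0.18, interval -0.21 to 0.57), and Klf10, induced by TGF-beta, differed by -0.14.

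The 3 Nr4a genes, orphan nuclear receptors that act without a known ligand, did not pass. Nr4a3 had 9.60, 9.62, 9.02 and 10.63 in knockout 5 to 8, against 9.28, 10.54, 9.26 and 10.45 in control 1 to 4. The 3 high arrays lay in both groups, and the difference of -0.17 had an interval of -1.05 to 0.72. Nr4a1 and Nr4a2 differed by -0.17 and -0.13, and Nr4a2 was highest in knockout 8 at 9.84 and next in control 4 at 9.77. The sign of all 3 turned with single arrays: without knockout 7 the differences were 0.05, 0.01 and 0.07 for Nr4a1, Nr4a2 and Nr4a3.

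Among the early response proteins and signalling inhibitors, 2 of 9 were lower in the knockout. Dusp6, the phosphatase that inactivates ERK in the cytoplasm, had 12.12, 12.07, 12.09 and 12.15 in knockout 5 to 8, against 12.61, 12.46, 12.43 and 12.55 in control 1 to 4. All knockout arrays lay within 0.08 of each other and below every control array, so Dusp6 did not follow the array order of the other members. Its within-group standard deviation of 0.07 lay at percentile 16.6 of all genes, and its level was 75.7% of the control's (difference -0.40, SE 0.06; limma adjusted p = 0.00195). It passed when any 1 array was left out (adjusted p 0.00272 to 0.0102) and without control 1 and control 4 together (adjusted p = 0.0267). With the hepatocyte and endothelial marker levels as covariates the difference was -0.43.

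Ier2, a small nuclear protein of the early response, had the largest difference of the 39. It stood at 10.02, 10.19, 9.45 and 10.08 in knockout 5 to 8 and at 10.33, 10.93, 10.73 and 11.43 in control 1 to 4. The groups did not overlap, with knockout 6 the highest knockout array and control 1 the lowest control array. At 52.9% of the control level the difference was -0.92 (SE 0.23; limma adjusted p = 0.0434). The call held without control 1 but was lost without any other single array (adjusted p up to 0.114), nor without control 1 and control 4 (0.0563). Trend and robust fitting also ended it (0.1).

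The other phosphatases of this group were mixed. Dusp5, which acts on nuclear ERK, had 10.23, 10.23, 10.10 and 10.96 in the knockout arrays and 10.76, 11.15, 10.62 and 11.54 in the control arrays. Knockout 8 alone overlapped the controls, and the difference of -0.64 (SE 0.23) did not pass (limma adjusted p = 0.172), but did without knockout 8 (-0.83, adjusted p = 0.0484). Dusp1, which inactivates stress kinases, differed by -0.17 and was below all controls in 3 of 4 knockout arrays, at levels of 13.49 and more in every array. Dusp2, an ERK phosphatase of immune cells, lay at 6.65 to 7.08, about the level of the olfactory receptor genes' 95th percentile.

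Ier3, Ier5, Rhob and Socs3 did not pass. Ier3, a survival factor, differed by -0.32 (limma adjusted p = 0.281), and Ier5, a regulator of heat shock factor, by -0.03. Rhob, a GTPase of endosomes, lay at 11.78 to 12.35 in the knockout arrays and 11.93 to 12.46 in the control arrays. Socs3, the feedback inhibitor of JAK and STAT signalling, followed the array order with 10.85 in knockout 7 and 12.25 in control 4. Its second probe set, which was dimmer, gave a difference of -0.30, close to the -0.27 of the brighter one.

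The heat shock genes encode chaperones and a co-chaperone. None of the 3 measured passed, with 0 also at an unadjusted p under 0.05. Dnajb1, the HSP40 partner of HSP70, had 10.80, 10.76, 10.24 and 11.48 in knockout 5 to 8, against 10.78, 12.14, 10.998 and 11.87 in control 1 to 4. It spanned 3.73-fold over the 8 arrays, and the difference of -0.63 had an interval of -1.38 to 0.13. Hspb1, a small heat shock protein, differed by -0.12, and its other probe set by -0.16. Hspa1a, stress-inducible HSP70, had 13.09, 13.29, 13.08 and 13.67 in the knockout arrays and 13.13, 13.45, 13.03 and 13.27 in the control arrays, a difference of 0.06 (interval -0.25 to 0.38).

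Hspa1a and Hspa1b are near-identical neighbours, and probes cannot be counted on to separate them. The probe set assigned to both had 13.54, 13.73, 13.52 and 13.95 in the knockout arrays and 13.65, 13.84, 13.47 and 13.69 in the control arrays. Its highest array was knockout 8, as for Hspa1a alone. The 170 bases before the starts, on the minus strand of chr17:34972157-34972326 and chr17:34959239-34959408, were alike at 169 bases (99.4%), with the heat shock motif in capitals at -104 in both.
Hspa1a: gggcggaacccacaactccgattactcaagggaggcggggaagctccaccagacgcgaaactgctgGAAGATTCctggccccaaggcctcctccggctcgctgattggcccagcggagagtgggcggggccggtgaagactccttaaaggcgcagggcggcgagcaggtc
Hspa1b: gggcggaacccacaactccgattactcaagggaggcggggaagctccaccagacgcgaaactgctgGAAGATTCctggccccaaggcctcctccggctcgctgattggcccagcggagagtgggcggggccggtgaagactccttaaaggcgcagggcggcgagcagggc

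Of the 6 growth arrest, RNA decay and stress genes, 1 was lower in the knockout and 5 did not pass. Btg2, an antiproliferative adaptor of mRNA deadenylation, had 12.11, 12.07, 11.47 and 12.20 in knockout 5 to 8, against 12.44, 12.85, 12.51 and 13.04 in control 1 to 4. The groups did not overlap and the level was 59.5% of the control's, a difference of -0.75 (SE 0.18; limma adjusted p = 0.0365). Btg2 did not pass without knockout 5, knockout 6, control 2 or control 4 (adjusted p up to 0.107), nor without control 1 and control 4 together (0.14) or with trend and robust fitting (0.093). Its relative Btg1 differed by 0.01 (interval -0.33 to 0.35).

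Gadd45g, a stress sensor that activates p38 and JNK kinases, went the other way from most of the list. It stood at 10.48, 10.71, 10.18 and 11.15 in knockout 5 to 8 and at 9.35, 10.15, 9.46 and 10.38 in control 1 to 4. Of the knockout arrays 3 exceeded every control array, and knockout 7 was below control 4. The difference of 0.79 (SE 0.27) did not pass (limma adjusted p = 0.131), and did not when any 1 array was left out (0.0649 to 0.291). With the hepatocyte and endothelial marker levels as covariates, a fit added after the data were seen, it was 0.97 with an adjusted p of 0.0095. Gadd45b, its paralogue, differed by 0.06 (interval -0.51 to 0.64).

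Zfp36, tristetraprolin, which binds AU-rich mRNAs for decay, and Ppp1r15a, which restores translation after stress, each had 3 of 4 knockout arrays below every control array. Zfp36 differed by -0.34 (limma adjusted p = 0.182; without knockout 8, -0.45 with adjusted p = 0.0363). Ppp1r15a differed by -0.45 (limma adjusted p = 0.368) and was lowest in knockout 7 at 10.92.

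**Figure D4:**
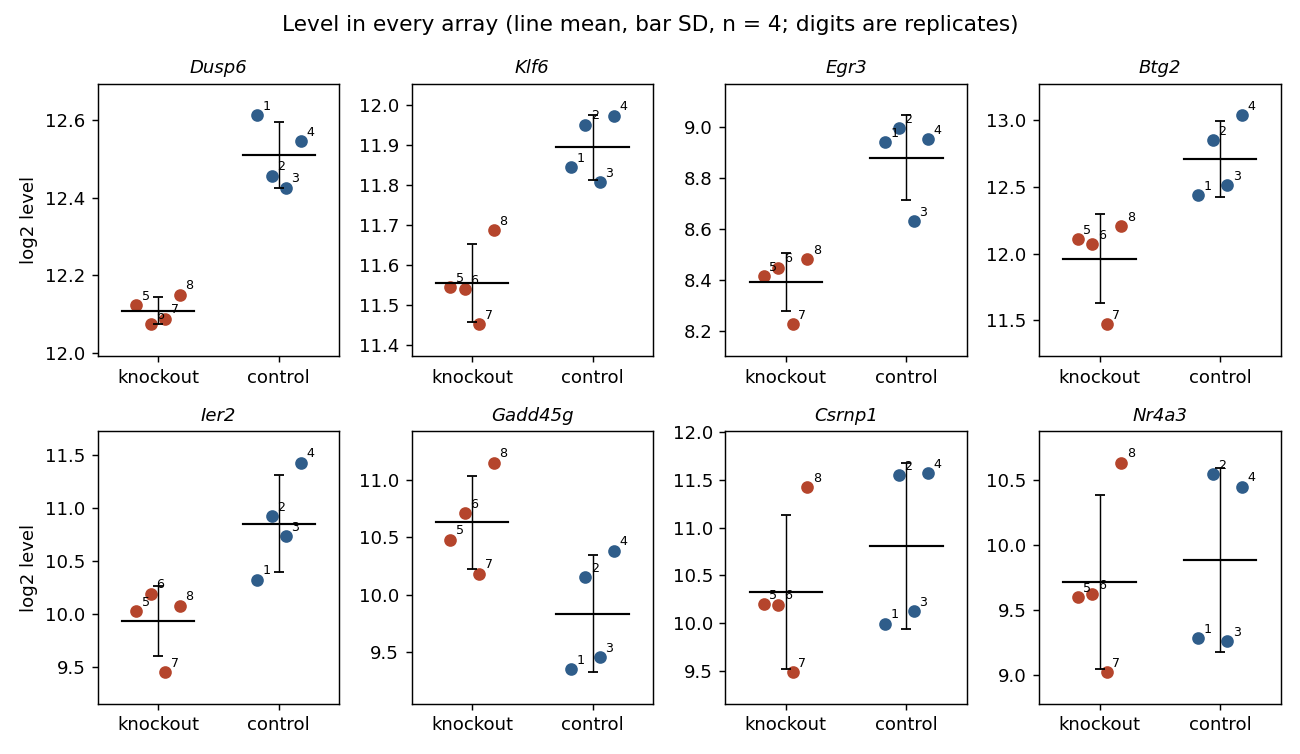
Log2 level (y, with a range of its own in each panel) of 8 genes in 4 knockout arrays (red, left) and 4 control arrays (blue, right), with replicate numbers, the mean (line) and the SD (bar). The upper row and Ier2 have groups that do not overlap, while Csrnp1 and Nr4a3 have high and low arrays in both groups.

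A further list of 95 early response and stress genes, of which 90 were measured, gave 7 lower and 0 higher in the knockout (limma, adjusted p under 0.05; 3.63% of all genes were lower and 7.38% passed in either direction; 23 lower and 5 higher at an unadjusted p under 0.05). Its median difference was -0.16. The shared array order held for 25 of these 90 genes (1.63% of all genes). Kinase feedback genes had 3 lower of 22, early transcription factors 3 of 19 and the NF-kB and cytokine genes 1 of 18. Of the 13 heat shock genes 0 passed (1 at an unadjusted p under 0.05), and of the 18 growth arrest and stress genes 0 (5 at an unadjusted p under 0.05).

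Several of these were phosphatases of the Dusp family, which was singled out after the calls were seen and has no test of its own. Across both lists 4 of 10 Dusp genes were lower and 0 higher in the knockout (limma; 3.63% of all genes were lower), namely Dusp6, Dusp4, Dusp16 and Dusp3. Among the 9969 genes above the median level, 628 were lower. Dusp4, a nuclear phosphatase of ERK, had 7.59, 7.60, 7.41 and 7.91 in knockout 5 to 8, against 8.51, 9.08, 8.93 and 9.23 in control 1 to 4, and stood at 40.3% of the control level. No knockout array came within 0.5 of a control array (difference -1.31, SE 0.16; limma adjusted p = 0.000817). Dusp16, which acts on JNK, differed by -0.63 (SE 0.09) and Dusp3 by -0.36 (SE 0.08). Dusp16 and Dusp4 passed in every alternative, whereas Dusp3 did not pass without control 1 and control 4 (adjusted p = 0.105), with the marker levels as covariates (0.0627), or without knockout 6, knockout 8, control 3 or control 4 (up to 0.0753). Dusp8, Dusp10 and Dusp14 differed by -0.62, -0.30 and -0.13 and did not pass.

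Srf, the factor that binds the serum response element, was lower as well. It had 10.21, 10.11, 10.42 and 10.34 in the knockout arrays and 10.93, 10.90, 10.75 and 10.89 in the control arrays. The groups were more than 0.3 apart and knockout 7, low for most early genes, was the highest knockout array. Srf stood at 66.0% of the control level (difference -0.60, SE 0.08; limma adjusted p = 0.0012) and passed in every alternative. The members with a CArG box in their window, Egr2, Dusp5 and Zfp36, did not pass. Their differences were negative (limma unadjusted p = 0.0371, 0.022 and 0.024), as were those of 33 of the 39 members. At an unadjusted p under 0.05, 12 of the 39 were lower. Egr2, Dusp5 and Zfp36 followed the shared array order, so they are not separate observations. Of the 5 members that passed, Dusp6, Klf6 and Btg2 had no box in the window, and the windows of Egr3 and Ier2 were not searched. A link between Srf and these genes was not tested.

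Ccl2, a monocyte chemokine and early NF-kB target, had 12.16, 12.09, 12.17 and 11.99 in the knockout arrays and 12.51, 12.75, 12.56 and 12.81 in the control arrays, without overlap (difference -0.55, SE 0.08; limma adjusted p = 0.00232). Cebpd, a leucine zipper factor of the acute phase, differed by -0.53 (limma adjusted p = 0.0319), and Klf7, a Krüppel-like factor, by -0.39 (0.0308). Cebpd did not pass without knockout 6, knockout 8, control 2, control 3 or control 4 (adjusted p up to 0.0951). Klf7 did not pass without knockout 5, 6 or 7 or control 2 or 4 (up to 0.0994), nor with the marker levels as covariates (0.0808). Neither passed without control 1 and control 4 (0.0756 and 0.132).

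**Figure D5:**
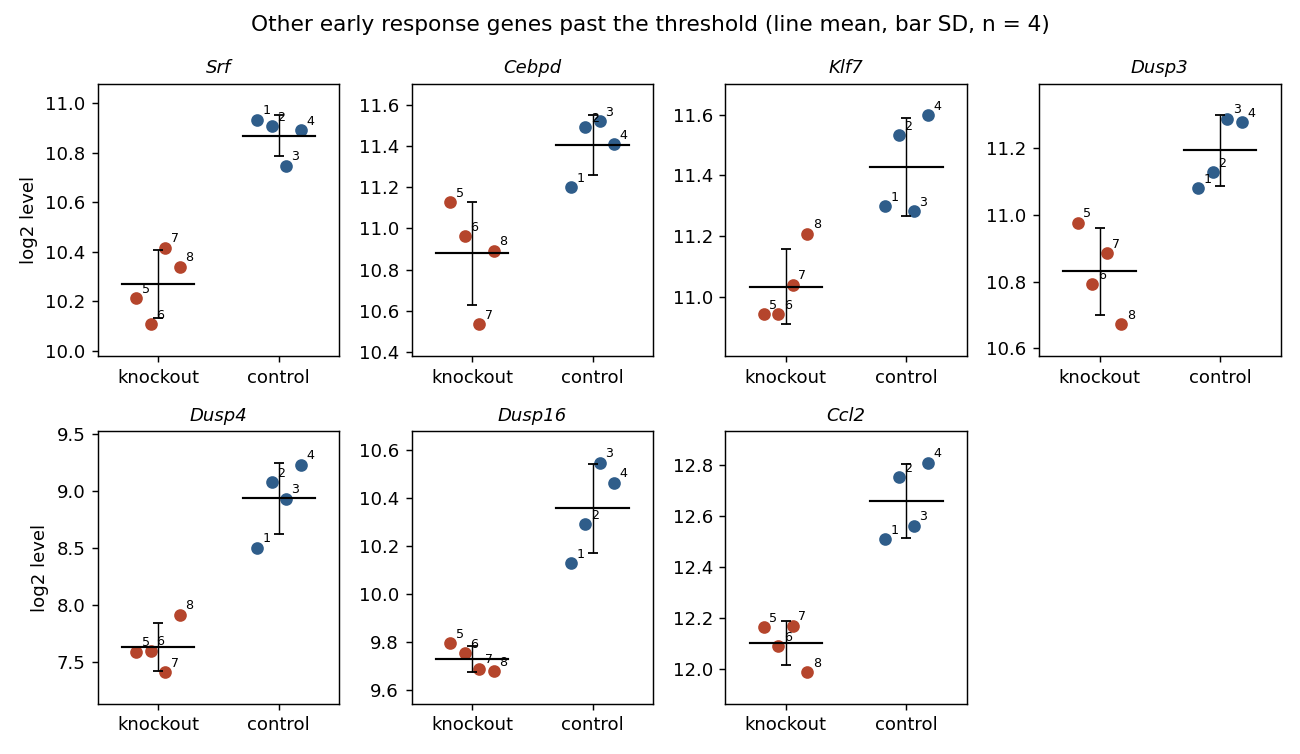
Log2 level (y, with a range of its own in each panel) of the 7 genes of the further list with an adjusted p under 0.05, in 4 knockout arrays (red, left) and 4 control arrays (blue, right), with replicate numbers, the mean (line) and the SD (bar). In all 7 panels every knockout array lies below every control array. The same held for 15 of the 90 measured genes of that list and 6.32% of all genes. It held for 1002 of the 9969 genes above the median level of all genes. The 7 were chosen by the test, so this separation is not a further result.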

How the data were processed

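The authors deposited 1 log2 value for each probe set on each array. Per the labels' protocols, and also per the submitters' processing notes, these came from the Robust Multichip Algorithm (RMA), whose version no source used here gives. RMA corrects background, equalises the arrays' distributions and summarises probes. Per the labels' protocols 150 ng of RNA was used. The table held 35556 probe sets. The platform annotation named 21789 with 1 gene symbol, and the probe set of highest mean stood for each of 19938 genes, while 1621 assigned to more than 1 gene were not tested. A RefSeq table (GRCm38.p6) matched 21698 of these by gene ID and changed 0 symbols. Groups came from the sample titles. Knockout minus control was fitted with limma 3.58.1 (R 4.3.3). Its two-sided p-values were adjusted by Benjamini and Hochberg's method across all 19938 genes, and 0.05 was the threshold. The members, lists and alternatives were chosen with earlier results of these data known. By rule the named genes were all measured members, Lhx2, further-list genes past the threshold and markers needed to describe a marker list. Dusp8, Dusp10, Dusp14, Adgrl4, Il1a and Dnase1l3 were named after their values were seen. On simulated data for this comparison of 19938 genes, 78% of 50 genes changed by 0.5 and 92% of 50 changed by 1 were recovered. The changed genes were drawn from all genes, and the noise was independent between genes. These rates do not carry over to the members, whose median within-group standard deviation was 0.31 against 0.11 for all genes. Batches could not be tested, since no source used here gives scan dates.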

Additional observations from a re-analysis of the deposited data

Results flagged for a closer look

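In 4 of 94 groups of 4 arrays, 1 array lay far from the other three by Dixon's criterion, where chance gives about 1 in 20. They were knockout 7 for Myc (11.36, low), knockout 8 for Dusp5 (10.96, high), and control 3 for Egr3 (8.63, low) and for Dusp2 (6.65, low). Egr3 was below every other control array in control 3 and still above all knockout arrays.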

How the results depend on the processing

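No paired analysis was possible because the groups share no replicate numbers. Median centring, quantile normalization, 2 filters on dim genes, array weights and the mean of the probe sets left the count of members lower in the knockout at 5 and of members higher at 0. With trend and robust fitting 3 were lower, at a threshold of 0.01 there was 1, and without control 1 and control 4 there was 1, from fewer arrays. Leaving out each array in turn gave 3 to 6. The fit with marker levels as covariates, added after the data were seen, gave 5 lower and 1 higher. Over all genes, 371 were higher and 405 lower without control 1 and control 4, and 386 and 389 at 0.01, against 749 and 723. Leaving out single arrays gave 502 to 790 higher and 487 to 677 lower. The median member difference stayed between -0.38 and -0.11 without single arrays, and Lhx2 between -0.73 and -0.59.

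The sign turned for 10 members, with adjusted p of at least 0.534 where it turned. With array weights Btg1 was -0.0814 and Gadd45b -0.0514. Without control 1 and control 4 Nr4a2 was 0.17 and Ier5 0.0238. With marker covariates Maff was 0.002, Nr4a2 0.13, Nr4a3 0.11, Ier5 0.13 and Hspb1 0.0094. Without single arrays the differences ran from -0.0949 to 0.13 for Btg1, -0.13 to 0.25 for Gadd45b, -0.33 to 0.0578 for Maff, -0.36 to 0.0454 for Nr4a1, -0.46 to 0.14 for Nr4a2, -0.47 to 0.066 for Nr4a3, -0.15 to 0.11 for Ier5, -0.026 to 0.0923 for Dusp2 and -0.0663 to 0.14 for Hspa1a. The cause was not tested.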

Other observations

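Apart from the early response and stress genes, the genes with the widest spread within groups were named after their values were seen. They included Adgrl4, an endothelial adhesion receptor (within-group SD 1.46), Il1a, an interleukin (1.45), and Dnase1l3, a secreted DNase (1.42). None of the 3 passed in the knockout comparison (limma adjusted p 0.885, 0.656 and 0.896).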
